A study of Mus musculus with 18 samples.

Results

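Apart from Mbd3, a member of the methyl-CpG-binding-domain family, the 8 genes described here write, copy, read or remove 5-methylcytosine in DNA. They were taken by symbol from a table of 55416 gene rows, in which Dnmt1, Dnmt3a, Dnmt3b, Tet1, Tet2, Tet3, Uhrf1 and Mbd3 each had 1 row, and all 8 were among the 29355 genes with enough reads to be tested. RNA was sequenced from neocortex of wild-type C57BL/6J mouse embryos (E14.5), after brain hemispheres had rotated in culture for 24 h. The treated arm (Epi) received 50 ng/mL of human recombinant EPIREGULIN, an EGF family ligand, and the untreated arm (Ctl) nothing. From both arms came radial glia (RG, the neural stem cells), intermediate progenitors (IP, their committed daughters) and neurons (N). That makes 6 groups, Epi RG, Ctl RG, Epi IP, Ctl IP, Epi N and Ctl N, with 3 biological replicates each and 18 libraries in all. How the populations were separated is not stated in the labels. The ligand is the human protein acting on mouse tissue, and all groups share the culture.

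DNA methylation in vertebrates sits mainly on cytosines that precede a guanine (CpG). DNMT3A and DNMT3B set new marks, while DNMT1 copies existing marks onto the daughter strand after replication, guided by UHRF1, which binds hemimethylated CpG sites at the fork. TET1, TET2 and TET3 oxidise 5-methylcytosine, which can lead to loss of the mark, and MBD3 is a member of the methyl-CpG-binding-domain family that serves as a subunit of the NuRD remodelling and deacetylase complex. In the developing cortex, cells leave the cycle as they become neurons, and both DNMT3A and oxidised methylcytosine are known for their roles in neuronal chromatin.

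The windows at the annotated start sites of the 8 genes differed in CpG content. Over 300 bases, from 250 before to 50 after the start of the Ensembl canonical transcript (GRCm39, GENCODE annotation), Dnmt3a and Tet3 each held 46 CpG, Dnmt3b 22, Tet2 20, Mbd3 20, Dnmt1 12, Uhrf1 10 and Tet1 5, against a median of 11 over 21757 promoters. The windows of Tet1, Dnmt1, Dnmt3a and Tet3 lay inside the gene spans given below. That of Tet1 lay deepest, at 62715744 to 62716043, while the 5′ end of its span is at 62744775. These counts therefore describe the window of 1 annotated transcript and need not be those of the promoter in use. Which start sites these cells use was not tested. The stretches of the 4 members with the largest difference between Ctl N and Ctl RG, Uhrf1, Dnmt1 and Dnmt3a among those lower in neurons and Tet3 as the one with the largest rise, are printed 5′ to 3′ on the strand of the gene, with each CpG in capitals. They lie at chr17:56610025-56610324 (plus strand), chr9:20864226-20864525 (minus), chr12:3856713-3857012 (plus) and chr6:83433325-83433624 (minus).
Uhrf1: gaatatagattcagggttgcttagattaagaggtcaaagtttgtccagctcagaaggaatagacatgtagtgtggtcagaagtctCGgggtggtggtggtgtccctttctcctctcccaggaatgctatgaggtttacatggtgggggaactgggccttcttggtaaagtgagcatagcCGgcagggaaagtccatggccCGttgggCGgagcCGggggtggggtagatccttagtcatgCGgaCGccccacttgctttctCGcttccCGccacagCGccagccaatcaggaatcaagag
Dnmt1: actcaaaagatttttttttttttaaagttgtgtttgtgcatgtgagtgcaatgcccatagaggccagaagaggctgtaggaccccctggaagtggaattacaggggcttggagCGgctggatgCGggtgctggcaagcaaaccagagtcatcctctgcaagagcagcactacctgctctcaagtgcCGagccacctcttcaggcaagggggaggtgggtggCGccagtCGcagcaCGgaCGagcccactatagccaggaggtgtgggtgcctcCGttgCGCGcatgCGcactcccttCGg
Dnmt3a: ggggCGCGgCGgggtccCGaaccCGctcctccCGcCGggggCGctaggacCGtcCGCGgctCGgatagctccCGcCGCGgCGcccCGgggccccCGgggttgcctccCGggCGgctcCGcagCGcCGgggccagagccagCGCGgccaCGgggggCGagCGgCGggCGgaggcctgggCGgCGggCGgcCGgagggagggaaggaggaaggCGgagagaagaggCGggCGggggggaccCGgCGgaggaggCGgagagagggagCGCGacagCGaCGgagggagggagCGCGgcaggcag
Tet3: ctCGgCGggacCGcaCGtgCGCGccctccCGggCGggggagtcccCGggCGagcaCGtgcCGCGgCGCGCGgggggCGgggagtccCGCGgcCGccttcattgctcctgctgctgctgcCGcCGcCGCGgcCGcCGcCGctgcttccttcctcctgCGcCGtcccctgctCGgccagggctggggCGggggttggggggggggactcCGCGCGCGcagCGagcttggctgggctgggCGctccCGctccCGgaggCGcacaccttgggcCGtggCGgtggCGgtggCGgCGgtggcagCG
The E2F-type words TTTCCCGC and TTTGGCGC, searched as exact letters on both strands, occurred in 0 of the 8 windows and in 2.01% of all promoters, which says only that these letters are not in these windows. A CpG-rich window was found both in a gene that was lower in neurons (Dnmt3a) and in one that was higher (Tet3).

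Libraries held between 15.5 and 34.2 M counts, and each of the 8 genes was well covered: the smallest count of any member in any library was 95 reads, for Uhrf1 in Epi N. The labels fitted the cell type markers only in part. All 12 radial glia markers were lower in Ctl IP and in Ctl N than in Ctl RG. The 10 neuron markers, however, summed to a mean of 299 CPM (counts scaled to a common library total, with TMM factors) in Ctl RG (range 254 to 348), 9115 CPM in Ctl IP (8428 to 9874) and 8937 CPM in Ctl N (8713 to 9136). Their sum was thus as high in Ctl IP as in Ctl N, while single markers differed, 2 higher and 3 lower in Ctl N than in Ctl IP. The 10 intermediate progenitor markers summed to 494 CPM in Ctl RG, 677 CPM in Ctl IP and 532 CPM in Ctl N. Of these, 5 were higher and 2 lower in Ctl IP than in Ctl RG, and in Epi 4 were higher and 2 lower. In Ctl N against Ctl IP, 8 of them were lower and 1 higher. The 7 Cajal-Retzius markers summed to 13.8 CPM in Ctl RG, 303 CPM in Ctl IP and 47.1 CPM in Ctl N, and the 9 interneuron markers to 17.3, 154 and 78.3 CPM in the same order. The 6 mural cell markers ran the other way, at 108, 13 and 9.2 CPM, as did the 5 meningeal ones, at 14.3, 6.24 and 5.92 CPM. No marker was at 0 throughout a group. Endothelial and microglial markers stayed at or below 15.7 summed CPM in every group, and the 8 erythroid markers lay at 47 CPM in Ctl RG, 68.2 CPM in Ctl IP and 153 CPM in Ctl N. Mitochondrially encoded transcripts took 3.14% to 5.06% of counts in Ctl RG, 4.91% to 9.3% in Ctl IP and 5.57% to 8.83% in Ctl N. The part of these transcripts in the differences below was not tested, and an IP value below is that of the population as isolated, neuron transcripts included. In bulk libraries of this kind, fewer cells of a type and less RNA per cell cannot be told apart.

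The maintenance pair Uhrf1 and Dnmt1 and the de novo enzyme Dnmt3a were lower in IP and N than in RG, and Tet2 and Tet3 were higher. Dnmt3b was lower in IP than in RG, Tet1 was lower in N than in RG in the Ctl arm at the margin of the test, and Mbd3 did not pass in either direction. The comparison of populations asks how the expression of these genes differs between stem cells, committed progenitors and neurons. In Ctl cultures, 2 members were higher and 4 lower in IP than in RG, at a Benjamini-Hochberg adjusted p under 0.05 in edgeR's quasi-likelihood test. Over all tested genes, 22.7% were called higher and 18.6% lower in that comparison, so that a call as such is common there. Between Ctl N and Ctl RG the count was again 2 higher (background 21%) and 4 lower (17.7%), and between Ctl N and Ctl IP it was 1 higher (2.6%) and 2 lower (7.74%). The Epi libraries gave 2 higher (23.2%) and 4 lower (19.6%) for IP against RG, 2 higher (21.4%) and 3 lower (18.3%) for N against RG, and 1 higher (2.8%) and 2 lower (8.16%) for N against IP. The median log2 fold change of the 8 genes was -0.36 in Ctl IP against Ctl RG and -0.33 in Ctl N against Ctl RG, beside -0.06 and 0.06 over all tested genes. Each call was recomputed under 26 alternatives: 8 other settings (among them upper-quartile scaling, no filter on low counts, only the compared groups, DESeq2, and the replicate number as a block) and the removal of each of the 18 libraries. With upper-quartile scaling the share of higher genes among all calls in N against IP was 43% in Epi, in place of 25.6%, and 37.1% in Ctl, in place of 25.1%, and the median of all genes in IP against RG was -0.18 in both arms.

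**Figure D1:**
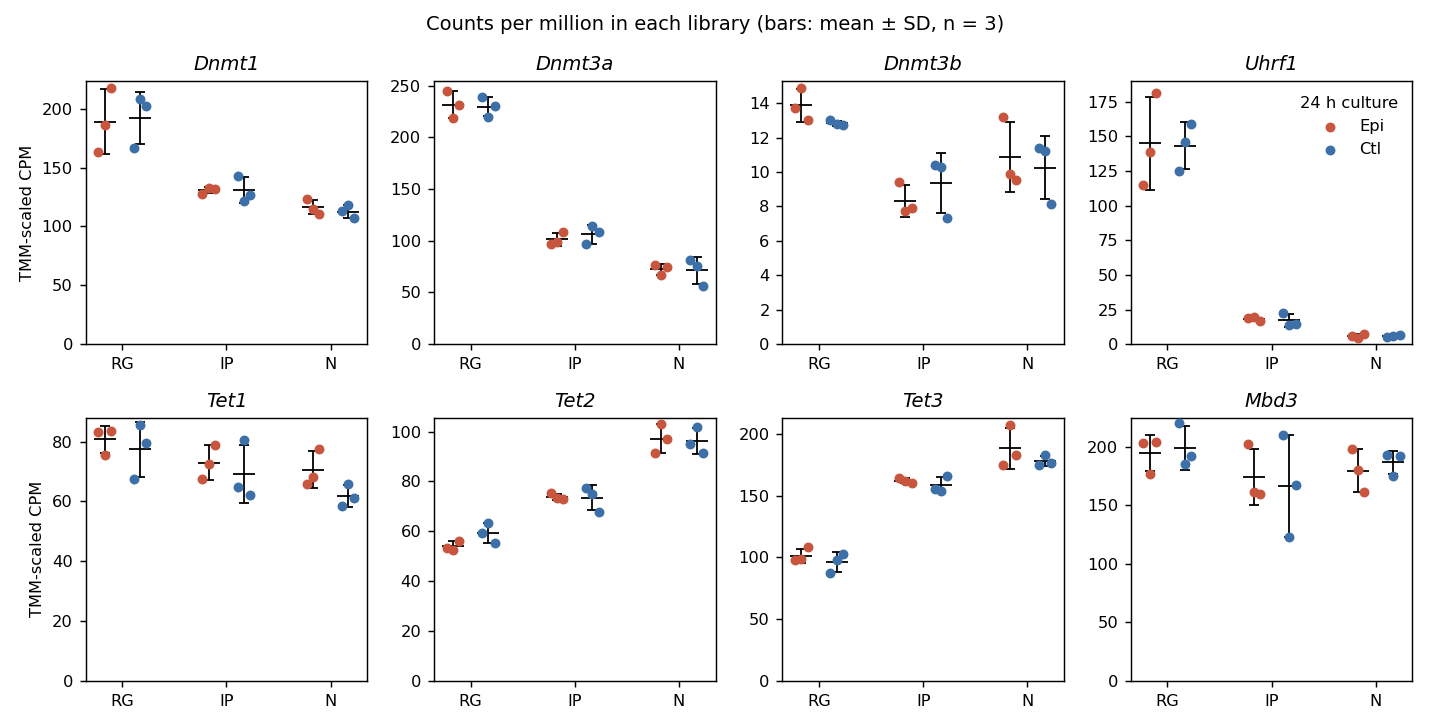
TMM-scaled CPM (y axis, from 0) of the 8 genes in each of the 18 libraries, by population along the lineage (x axis), with Epi left of Ctl and bars for the mean ± SD of 3 libraries. Uhrf1, Dnmt1 and Dnmt3a stood highest in RG and Tet2 and Tet3 highest in N, while Epi and Ctl libraries of each population lay at similar levels.

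Uhrf1 (ENSMUSG00000001228, chromosome 17, 56610321 to 56630486, plus strand), whose product recruits DNMT1 to newly copied DNA, showed the largest difference of the 8. Its values were 115, 139 and 181 CPM in the Epi RG libraries, 19, 19.7 and 16.9 CPM in Epi IP and 5.77, 4.2 and 7.13 CPM in Epi N. The Ctl libraries gave 125, 146 and 159 CPM in RG, 22.7, 14.2 and 14.8 CPM in IP and 5.47, 5.99 and 6.53 CPM in N. No library of one population reached the range of another, in either arm. In Ctl cultures the level in N was 23.8-fold lower than in RG (log2 fold change -4.58 ± 0.22 SE, adjusted p = 7.36e-14), that in IP 8.28-fold lower than in RG (-3.05 ± 0.20, 1.6e-11) and that in N 2.88-fold lower than in IP (-1.53 ± 0.20, 1.31e-05). These 3 calls, and those of the Epi arm (-4.67, -2.97 and -1.71), held under each of the 26 alternatives tried. Of the total log2 difference between N and RG, 63.5% in Epi and 66.7% in Ctl was present in IP.

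Dnmt1 (ENSMUSG00000004099, chromosome 9, 20818505 to 20871184, minus strand), the maintenance methyltransferase, was also lower outside RG but by far less. The Epi libraries held 163, 186 and 218 CPM in RG, 128, 133 and 132 CPM in IP and 123, 115 and 111 CPM in N. The Ctl libraries held 167, 208 and 202 CPM in RG, 143, 122 and 127 CPM in IP and 113, 118 and 107 CPM in N, so that neurons still carried more than 100 CPM. All RG libraries lay above all others. The log2 fold change was -0.77 ± 0.12 in Ctl N against Ctl RG (adjusted p = 9.48e-06) and -0.56 ± 0.12 in Ctl IP against Ctl RG (0.000412), and both calls held under all 26 alternatives, as they did in Epi (-0.70 and -0.52). In N against IP the libraries did not overlap, yet the difference did not pass (Ctl -0.21, 95% interval -0.45 to 0.03, adjusted p = 0.32). Within a library, the log2 ratio of Uhrf1 to Dnmt1, which does not depend on scaling, averaged -0.41 (SD 0.10) in RG, -2.89 (0.19) in IP and -4.31 (0.29) in N, over 6 libraries of each population. Each of its 3 pairwise differences had p = 0.005 in an exact two-sided permutation of population labels within each arm, the smallest that 400 arrangements can give, and 0.00675 after adjustment over 27 ratio comparisons. That permutation takes no account of the replicate number. With populations exchanged only within a replicate number and arm, 64 arrangements remain, whose smallest p is 0.0312, and the 3 differences, seen in 6 of 6 pairs, each had that p (adjusted p = 0.0367). The other ratio differences given below as passing had the same p in that exact permutation.

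Dnmt1 and Uhrf1 were set beside 26 genes of DNA replication, since both proteins act at the fork. All 26 S phase genes were lower in Ctl N and in Ctl IP than in Ctl RG, with median log2 fold changes of -2.80 and -2.05, and 17 of them were lower in Ctl N than in Ctl IP (median -0.69), or 20 with the replicate number as a block. Mcm3, a helicase subunit, stood at 2.67 ± 0.578 CPM in Ctl N and 162 ± 28.8 CPM in Ctl RG (SD, n = 3), and Dtl, an adaptor of a replication-linked ubiquitin ligase, at 6.79 ± 0.991 and 158 ± 23.2 CPM. Relative to the mean log2 level of the 26 genes, Dnmt1 was higher in N than in RG by 2.35 (log2 ratio 3.57 ± 0.11 in N and 1.22 ± 0.10 in RG, SD, n = 6 each) and Uhrf1 was lower by 1.55 (-0.74 ± 0.23 in N and 0.81 ± 0.12 in RG). Dnmt1 thus fell less than the replication genes and Uhrf1 more than their mean, and both differences had adjusted p = 0.00675 in the same exact permutation test. Dnmt1 likewise stood 1.6 higher relative to them in IP than in RG, and Uhrf1 0.88 lower (adjusted p = 0.00675 each, exact permutation).

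**Figure D2:**
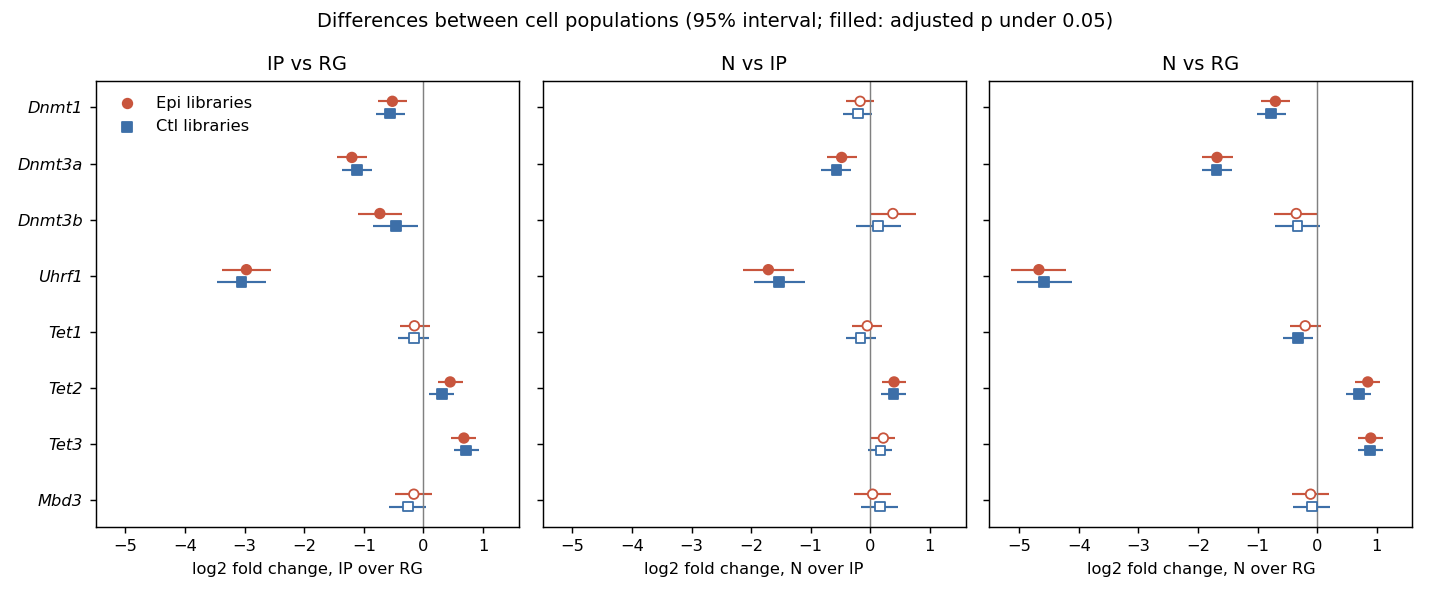
Log2 fold changes (x axis) of the 8 genes for IP over RG, N over IP and N over RG, with 95% intervals from the edgeR fit, Epi as circles above Ctl as squares, filled where the adjusted p was under 0.05. Uhrf1 lies farthest to the left in each panel, and Tet2 and Tet3 lie right of 0.

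Dnmt3a (ENSMUSG00000020661, chromosome 12, 3856007 to 3964443, plus strand) encodes the main de novo methyltransferase of the developing brain. Its levels were 245, 219 and 231 CPM in Epi RG, 96.8, 98.9 and 108 CPM in Epi IP and 76.6, 66.5 and 74.4 CPM in Epi N. In the Ctl libraries they were 239, 220 and 230 CPM in RG, 96.6, 114 and 108 CPM in IP and 81.6, 76 and 56.5 CPM in N. The 3 populations were fully separated in both arms. Ctl N lay 3.22-fold below Ctl RG (log2 fold change -1.69 ± 0.12, adjusted p = 1.26e-10), Ctl IP 2.16-fold below Ctl RG (-1.11 ± 0.12, 8.65e-08) and Ctl N 1.49-fold below Ctl IP (-0.57 ± 0.12, 0.00231). The Epi values were -1.68, -1.20 and -0.48, and the last of them (adjusted p = 0.0097) no longer passed with upper-quartile scaling (-0.37, 0.0847) or without Epi N replicate 2 (-0.43, 0.0634). The log2 ratio of Dnmt3a to Dnmt1 was -0.68 ± 0.16 in N and 0.28 ± 0.22 in RG (SD, n = 6 each), a difference of -0.97 with adjusted p = 0.00675 in the exact permutation test.

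Dnmt3b (ENSMUSG00000027478, chromosome 2, 153491370 to 153529650, plus strand), the de novo enzyme best known from the early embryo, was the least abundant methyltransferase. Values were 13.7, 14.9 and 13 CPM in Epi RG, 9.41, 7.71 and 7.89 CPM in Epi IP and 13.2, 9.86 and 9.56 CPM in Epi N. The Ctl libraries held 13, 12.8 and 12.7 CPM in RG, 10.4, 10.3 and 7.33 CPM in IP and 11.4, 11.2 and 8.13 CPM in N. IP libraries lay below all RG libraries in both arms, and N libraries did so in Ctl only. The difference passed in Epi IP against Epi RG (log2 fold change -0.73 ± 0.18, adjusted p = 0.00184) under all alternatives, and in Ctl IP against Ctl RG (-0.46 ± 0.18, 0.0421) only narrowly: there it was lost without the low-count filter (0.118), with only the compared groups (0.0912) and in 13 of the 18 fits that left out a library, with adjusted p up to 0.246 without Ctl IP replicate 3. It was kept without Ctl IP replicate 1 or 2, Ctl N replicate 3 and Epi N replicate 1 or 3. N against RG did not pass in Ctl (-0.33, adjusted p = 0.161) or in Epi (-0.35, 0.133). With the replicate number as a block both passed as lower (Ctl -0.35, 0.0482, and Epi -0.36, 0.0374). The Epi value also passed with DESeq2 (-0.40, 0.0479) and without Epi N replicate 1 (-0.51, 0.0479). Reads of Dnmt3b and its near copy Dnmt3c may be shared by the counting, which makes the Dnmt3b level uncertain. Dnmt3c itself held 9 to 36 reads per library, 3.7% to 12.2% of the Dnmt3b count.

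Among the TET dioxygenases, Tet3 (ENSMUSG00000034832, chromosome 6, 83339355 to 83436066, minus strand) rose most. It stood at 97.6, 98.4 and 108 CPM in Epi RG, 164, 162 and 160 CPM in Epi IP and 175, 207 and 183 CPM in Epi N. In the Ctl arm it stood at 87.6, 97.8 and 103 CPM in RG, 155, 154 and 166 CPM in IP and 175, 183 and 176 CPM in N. The populations did not overlap. Ctl N was 1.85-fold above Ctl RG (log2 fold change 0.89 ± 0.10, adjusted p = 1.27e-07) and Ctl IP 1.65-fold above it (0.72 ± 0.10, 2.62e-06), and these calls held under all 26 alternatives. The step between IP and N was small and did not pass (Epi 0.22, adjusted p = 0.201, and Ctl 0.17, 0.373), except in Epi with upper-quartile scaling (0.32, 0.0129). In Ctl, 81.1% of the log2 difference between N and RG was present in IP.

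Tet2 (ENSMUSG00000040943, chromosome 3, 133169440 to 133250900, minus strand), the TET enzyme without a CXXC DNA-binding domain of its own, was higher at each step. Epi libraries had 53.5, 52.4 and 56.2 CPM in RG, 75.2, 73.3 and 72.8 CPM in IP and 91.6, 103 and 97 CPM in N. Ctl libraries had 59.3, 63.3 and 55.2 CPM in RG, 77.5, 74.9 and 67.8 CPM in IP and 95.1, 102 and 91.5 CPM in N, again without overlap between populations. N exceeded RG 1.62-fold in Ctl (log2 fold change 0.70 ± 0.10, adjusted p = 4.54e-06), a call kept under all alternatives, as was that in Epi (0.85 ± 0.10, 2.78e-07). The smaller steps were less secure. Ctl IP against Ctl RG (0.31 ± 0.10, 0.016) was lost with upper-quartile scaling (0.20, 0.138), with only the compared groups (0.124), without Ctl RG replicate 3 (0.0694) and without Ctl IP replicate 1 (0.0573). Ctl N against Ctl IP (0.39 ± 0.10, 0.0111) was lost without the filter (0.0803), with only the compared groups (0.113), without Ctl IP replicate 3 (0.0805) and without Ctl N replicate 2 (0.0812). Epi N against Epi IP (0.40 ± 0.10, 0.00901) was lost without the filter (0.094) and without Epi IP replicate 2 (0.0596), Epi IP replicate 3 (0.0528) or Epi N replicate 2 (0.0783).

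Tet1 (ENSMUSG00000047146, chromosome 10, 62640349 to 62744775, minus strand), known best from pluripotent cells, varied little. Levels were 83.1, 75.5 and 83.6 CPM in Epi RG, 67.6, 72.4 and 79 CPM in Epi IP and 65.9, 68.3 and 77.5 CPM in Epi N. In Ctl they were 67.5, 85.4 and 79.4 CPM in RG, 64.7, 80.4 and 62.3 CPM in IP and 58.5, 65.9 and 61.1 CPM in N. The Ctl N libraries lay just under those of Ctl RG, and every other pair of populations overlapped. Tet1 in Ctl N was lower than in Ctl RG at the margin of the test (log2 fold change -0.32 ± 0.12, adjusted p = 0.0388). That call was lost without the filter (0.132) and in 13 of 18 fits that left out a library, with adjusted p up to 0.203 without Ctl RG replicate 2, and it was kept without Ctl RG replicate 1, any one of the Ctl IP replicates or Epi N replicate 3. The Epi value was -0.20 (95% interval -0.45 to 0.06, adjusted p = 0.227), and no difference involving IP passed.

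Relative to each other the 3 TET genes changed clearly. The log2 ratio of Tet2 to Tet1 was -0.48 ± 0.16 in RG, 0.06 ± 0.15 in IP and 0.55 ± 0.13 in N, and that of Tet3 to Tet1 was 0.32 ± 0.08, 1.18 ± 0.18 and 1.47 ± 0.13 in the same order (SD, n = 6 each). In N against RG both differences, 1.03 and 1.15, came without overlap of libraries and had adjusted p = 0.00675 (exact permutation), whereas the ratio of Tet3 to Tet2 did not pass there (0.12, adjusted p = 0.0831). That ratio was higher in IP than in RG by 0.32, without overlap, and lower in N than in IP, at -0.20 with overlap (adjusted p = 0.00675 each, exact permutation). As a share of the 3 genes per kilobase of exon, Tet3 made up 40.8% ± 1.81 in Ctl RG, 52.5% ± 3.26 in Ctl IP and 53.1% ± 0.782 in Ctl N, Tet1 35.4% ± 1.64, 24.7% ± 2.84 and 19.9% ± 0.537, and Tet2 23.8% ± 2.11, 22.9% ± 1.53 and 27.0% ± 0.69 (SD, n = 3). The TET pool thus held less Tet1 and more Tet3 in IP and N than in RG.

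**Figure D3:**
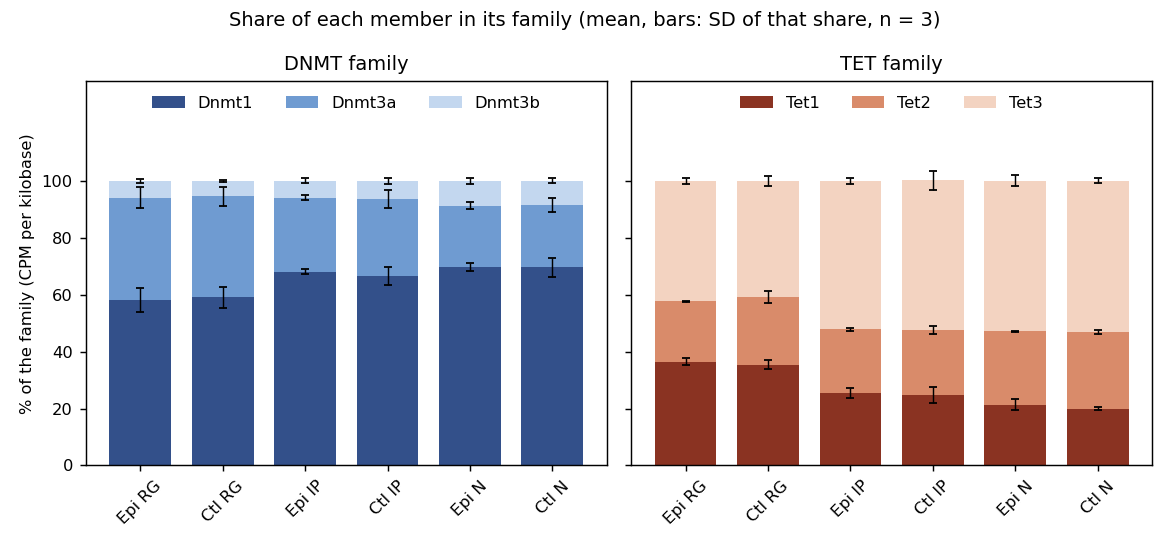
Share of each gene in its family (y axis, % of the summed CPM per kilobase of exon) in the 6 groups, with Epi left of Ctl along RG, IP and N; bars are means of 3 libraries and whiskers the SD of the segment they cap. Dnmt1 took 69.6% of the DNMT level in Ctl N and 59.1% in Ctl RG, and Tet1 took 19.9% of the TET level in Ctl N and 35.4% in Ctl RG.

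The DNMT pool moved towards Dnmt1. Per kilobase, Dnmt1 made up 59.1% ± 3.74 of the 3 methyltransferase genes in Ctl RG, 66.5% ± 3.22 in Ctl IP and 69.6% ± 3.26 in Ctl N, and Dnmt3a 35.4% ± 3.37, 27.0% ± 3.20 and 21.8% ± 2.41 (SD, n = 3). Dnmt3b stayed small, at 5.45% ± 0.383, 6.50% ± 1.09 and 8.58% ± 0.864. These shares rest on the exon length used, since Dnmt3a has the longest exons of the 3: without division by length, Dnmt1 was the largest in Ctl N (58.3% ± 3.81, against 36.5% ± 3.39 for Dnmt3a) and Dnmt3a the largest in Ctl RG (52.9% ± 3.70, against 44.2% ± 3.83 for Dnmt1). The direction between populations was the same on both scales.

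Mbd3 (ENSMUSG00000035478, chromosome 10, 80228373 to 80235384, minus strand), the NuRD subunit, had no call in any comparison of the fit over all groups. Its Epi libraries lay at 203, 177 and 204 CPM in RG, 202, 161 and 160 CPM in IP and 198, 180 and 161 CPM in N. Its Ctl libraries lay at 220, 185 and 192 CPM in RG, 210, 123 and 167 CPM in IP and 193, 175 and 192 CPM in N. All populations overlapped, and Ctl IP spanned the widest range. N against RG gave -0.11 in Epi (95% interval -0.42 to 0.20) and -0.09 in Ctl (-0.40 to 0.22). For Ctl IP against Ctl RG the value of -0.26 (-0.57 to 0.05, adjusted p = 0.189) passed as lower with the replicate number as a block (-0.27, 0.0359) and without Ctl IP replicate 1 (-0.45, 0.0184), and shrank to -0.07 without Ctl IP replicate 2 (0.755).

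The order of the 8 genes by level differed between stem cells and neurons. In Ctl RG, CPM per kilobase of exon ran from Mbd3 (30.7 ± 2.87) over Uhrf1 (27.1 ± 3.29), Dnmt1 (22.6 ± 2.64), Dnmt3a (13.5 ± 0.542), Tet3 (5.76 ± 0.467), Tet1 (5.01 ± 0.592) and Tet2 (3.34 ± 0.229) to Dnmt3b (2.07 ± 0.0277; SD, n = 3). Libraries of Mbd3 and Uhrf1, of Uhrf1 and Dnmt1 and of Tet3 and Tet1 overlapped, so these neighbours were not apart by more than their spread. In Ctl IP, Tet1 (4.47 ± 0.637), Tet2 (4.14 ± 0.282) and Uhrf1 (3.26 ± 0.893) lay side by side with overlapping neighbours, under Dnmt3a (6.24 ± 0.53). In Ctl N the order was Mbd3 (28.8 ± 1.53), Dnmt1 (13.3 ± 0.627), Tet3 (10.7 ± 0.256), Tet2 (5.42 ± 0.306), Dnmt3a (4.19 ± 0.772), Tet1 (4 ± 0.243), Dnmt3b (1.65 ± 0.294) and Uhrf1 (1.14 ± 0.10), in which Dnmt3a and Tet1 overlapped. On this scale Uhrf1 was last of 8 in Ctl N and second in Ctl RG. The order rests in part on the exon length used. Without division by length, Dnmt3a (230 CPM), Mbd3 (199) and Dnmt1 (192) all stood above Uhrf1 (143) in Ctl RG. In Ctl N, Tet3 (178 CPM) then stood above Dnmt1 (113), and Uhrf1 (5.99) was still the lowest.

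Across the 18 libraries, log2 CPM of Uhrf1 correlated with Dnmt3a at 0.97, with Dnmt1 at 0.96 and with Tet3 at -0.96 (Pearson, a description, since libraries of a population share their level). Tet2 and Tet3 correlated at 0.90, and Mbd3 with Uhrf1 at only 0.32. Among 12464 genes whose log2 CPM averaged 1 or more, those most like Uhrf1 were Tcf19 (0.996), Pygb (0.995), Dtl (0.995), Tubb4b (0.995) and Notch1 (0.994). Dnmt1 was most like Lrig1 (0.979), Pacsin2 (0.975), Ccnd1 (0.971), Cnksr3 (0.971) and Rbm20 (0.967), and Dnmt3a like Col5a1 (0.992), Rgcc (0.992), Slc9a3r1 (0.990), Ddah1 (0.989) and Sash1 (0.988). Several of these are familiar from cycling or radial glial cells, such as Ccnd1, a D cyclin, and Notch1, a receptor that keeps progenitors undifferentiated. Tet3 was most like Stx6 (0.992), Bcl9 (0.992), Tmsb4x (0.991), Epc1 (0.991) and Camta1 (0.990), and Tet2 like Osbpl6 (0.977), Sema6d (0.976), Bsdc1 (0.974), Gria2 (0.973) and Palmd (0.972). Gria2 encodes a subunit of AMPA receptors. Weaker likeness was found for Dnmt3b (Klf4 0.924, Fn1 0.915, Rrp1b 0.911, Ptpn14 0.901, Rbms2 0.898), Mbd3 (Rgl2 0.940, Eif4g1 0.919, Nacc1 0.894, Gpaa1 0.893, Cnot3 0.892) and Tet1 (Rlf 0.882, Ccdc66 0.854, Septin7 0.851, Ckap5 0.841, Galnt4 0.840).

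EPIREGULIN left no detectable change in any of the 8 genes. The comparison of Epi with Ctl in each population asks whether the ligand alters their expression within 24 h, and 0 of 8 members passed in RG, 0 in IP and 0 in N, as in the mean over the populations. Over all 29355 genes, too, 0% were called in each of these 4 comparisons and for the 3 differences between populations in their response, by edgeR, by DESeq2 and by limma voom, with 478 genes at an unadjusted p under 0.05 in RG, 535 in IP, 752 in N and 841 in the mean. No member reached an unadjusted p under 0.05 in any of them. The largest member difference was that of Tet1 in N, at 70.5 ± 6.12 CPM in Epi and 61.9 ± 3.75 CPM in Ctl (SD, n = 3), a log2 fold change of 0.19 with a 95% interval of -0.06 to 0.44. Tet1 averaged over populations gave 0.11 (-0.03 to 0.26).

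**Figure D4:**
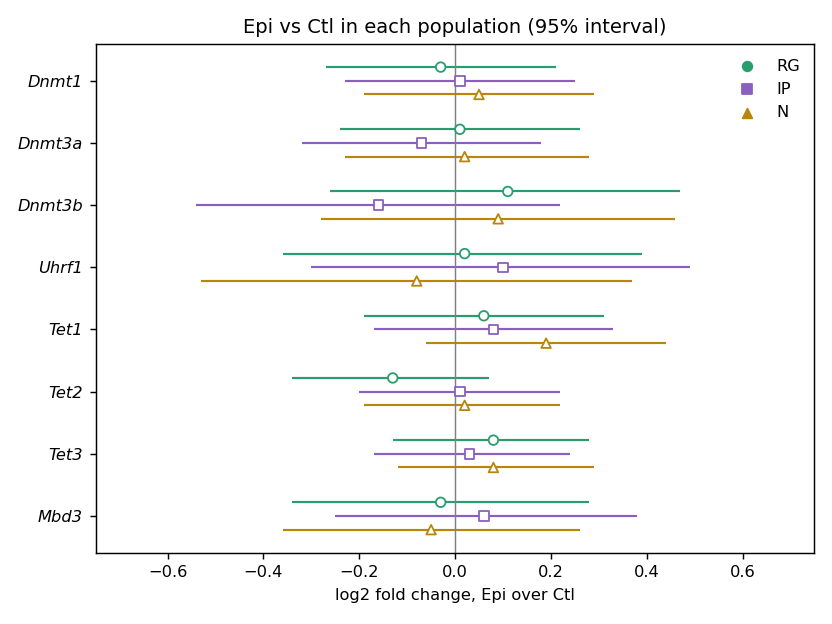
Log2 fold change of Epi over Ctl (x axis) for the 8 genes in RG, IP and N, with 95% intervals from the edgeR fit; open symbols mark values that did not pass. Each interval includes 0, and the intervals of Dnmt3b and Uhrf1 are the widest.

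The intervals bound what could have been missed in the fit without the replicate number as a block, from which they come. In that fit 1.63% of all genes in RG, 1.82% in IP, 2.56% in N and 2.86% in the mean had an unadjusted p under 0.05 (edgeR). That is less than unchanged genes alone would give at this threshold, so the test ran conservative. With the block, too, 0 genes were called. For Uhrf1 the log2 fold change of Epi over Ctl was 0.02 in RG (95% interval -0.36 to 0.39), 0.10 in IP (-0.30 to 0.49) and -0.08 in N (-0.53 to 0.37). Levels were 145 ± 33.5 CPM in Epi RG and 143 ± 17.4 CPM in Ctl RG, 18.5 ± 1.48 CPM in Epi IP and 17.2 ± 4.71 CPM in Ctl IP, and 5.70 ± 1.47 CPM in Epi N and 5.99 ± 0.529 CPM in Ctl N (SD, n = 3). For Dnmt1 the widest bounds were -0.27 and 0.29 and for Dnmt3a -0.32 and 0.28, over the 3 populations. Over all 8 genes and 3 populations no bound lay below -0.54 or above 0.49, so larger changes in either direction lay outside the 95% intervals. The difference of the treatment effect between populations was largest for Dnmt3b in IP against RG, at -0.27 with an interval of -0.79 to 0.26.

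Genes that work with the 8 were read from lists, with the same test over all genes. Their counts stand against the shares called over all genes, 21% higher and 17.7% lower in Ctl N against Ctl RG, and 22.7% and 18.6% in Ctl IP against Ctl RG. Of 13 methylation cofactors, 3 were higher and 6 lower in Ctl N than in Ctl RG (median log2 fold change -0.44), and 2 higher and 6 lower in Ctl IP than in Ctl RG (-0.63), or 3 and 6 with the replicate block. Hells, the remodeller needed for methylation of repeats, stood at 16.9 ± 2.50 CPM in Ctl N and 155 ± 19.9 CPM in Ctl RG (-3.20 ± 0.18, adjusted p = 1.03e-12). Its partner Cdca7 stood at 9.86 ± 1.01 and 121 ± 21.5 CPM (-3.62 ± 0.19, 3.64e-13), Cdca7l at 1.2 ± 0.516 and 26.7 ± 3.23 CPM (-4.47 ± 0.38, 1.21e-09), and Pcna, the replication clamp that DNMT1 binds, at 26.1 ± 6.66 and 153 ± 41.2 CPM (-2.55 ± 0.22, 2.15e-09). Cxxc5 (-1.15) and Idh2 (-0.44), a mitochondrial source of the TET cosubstrate 2-oxoglutarate, were lower too, and the call of Idh2 (adjusted p = 0.0429) was lost without Ctl RG replicate 3 (-0.28, 0.269), Ctl RG replicate 2 (0.0694), Ctl N replicate 1 (0.137) or Ctl N replicate 2 (0.17), and also without the filter, Ctl IP replicate 3, Epi IP replicate 1 or 3, or any one Epi N replicate. Idh1, which makes it in the cytosol, was higher, at 188 ± 28.5 CPM in Ctl N and 31.0 ± 8.04 CPM in Ctl RG (2.6 ± 0.20, 2.8e-10), as were Usp7 (0.45), a deubiquitinase that binds DNMT1 and UHRF1, and Ogt (0.53), a partner of TET proteins. Uhrf2, the paralogue of Uhrf1, did not pass (152 ± 6.11 and 168 ± 13 CPM, -0.14), nor did Dnmt3l (-0.53), Cxxc1 (0.22) or Cxxc4 (-0.18).

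Of the 9 genes listed as methyl-CpG readers, 5 were higher and 1 lower in Ctl N than in Ctl RG (median 0.56). In Ctl IP against Ctl RG, 4 were higher and 1 lower (0.39), or 6 and 1 with the replicate block, which added Mbd6 (0.0141) and Zbtb33 (0.000137). Whether the product of each listed gene binds methylated CpG was not tested. Mbd5 stood at 42.8 ± 1.09 CPM in Ctl N and 18.3 ± 1.38 CPM in Ctl RG (1.23 ± 0.11, adjusted p = 6.24e-09). Zbtb38 (1.13), Mbd6 (1.11) and Mbd2 (0.41) were among the others that were higher, and Mbd4, a glycosylase for G/T mismatches at CpG, was lower (-1.34 ± 0.17, 5.79e-07). The Mbd2 call was lost with RLE scaling (0.0546), with only the compared groups (0.0671), and without Ctl RG replicate 1 (0.28, 0.133), Ctl N replicate 2 (0.0635) or Ctl N replicate 3 (0.054). Zbtb33 (0.85, adjusted p = 0.0549), Mbd1 (0.22) and Zbtb4 (-0.03) did not pass. Zbtb33 did pass as higher with upper-quartile scaling (0.0466), no filter (0.0203) or only the compared groups (0.0283), and without Ctl N replicate 1 (0.0239), Ctl RG replicate 3 (0.0415), Epi RG replicate 1 (0.0464), Epi IP replicate 1 (0.0297) or 3 (0.0397), or Epi N replicate 1 (0.0431) or 3 (0.0403). Of the 14 other NuRD subunits, among which Mbd2 is counted again, 8 were higher and 2 lower in Ctl N than in Ctl RG (median 0.44). The helicases Chd3 (724 ± 77.5 CPM in Ctl N and 175 ± 17.0 CPM in Ctl RG, 2.05 ± 0.16, 4.02e-10) and Chd5 (48.6 ± 6.34 and 10.8 ± 0.882 CPM, 2.16 ± 0.18, 6.96e-10) and the deacetylase Hdac2 (1.33 ± 0.17, 1.13e-06) led the higher ones, while Rbbp7 (-1.28) and Hdac1 (-0.37) were lower, Hdac1 not so without the filter (0.0588) or without Ctl N replicate 2 (0.0976), where the count was 6 higher and 1 lower. Mbd3, at -0.09, lay between them. In Ctl IP against Ctl RG the NuRD count was 7 higher and 3 lower, 4 and 5 with upper-quartile scaling, 3 and 3 with only the compared groups, and 8 and 5 with the replicate number as a block.

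**Figure D5:**
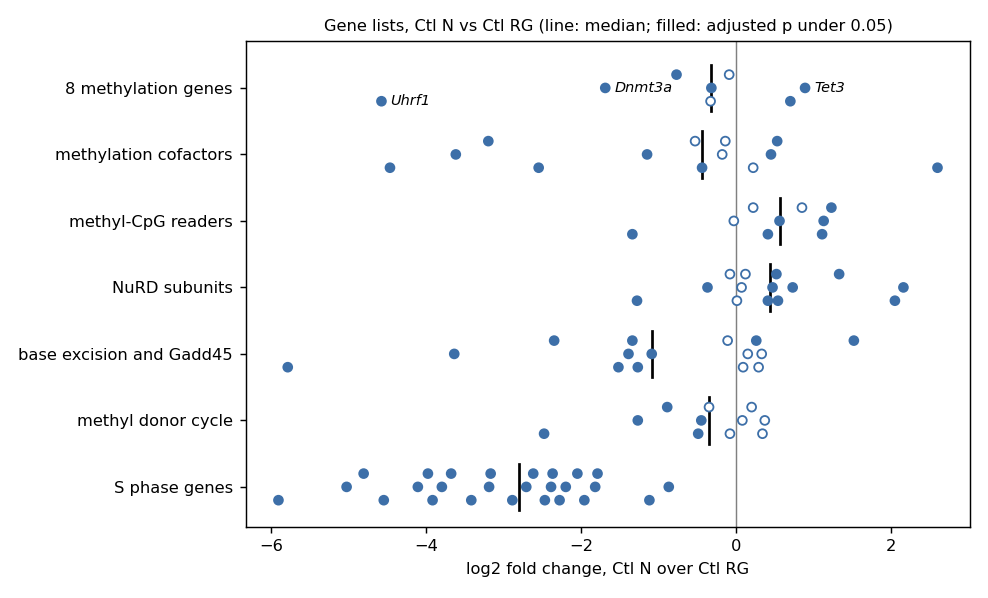
Log2 fold change of Ctl N over Ctl RG (x axis) for each gene of 7 lists (rows); points are genes, filled where the adjusted p was under 0.05, and black lines are medians. All 26 S phase genes lie left of 0 with a median of -2.80, while methyl-CpG readers and NuRD subunits have medians of 0.56 and 0.44.

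Only some of the 15 genes of base excision and the Gadd45 family act after TET oxidation, and Mbd4 is counted among them again. Of the 15, 2 were higher and 8 lower in Ctl N than in Ctl RG (median -1.09). In Ctl IP against Ctl RG, 2 were higher and 5 lower (-0.44), or 4 and 7 with the replicate block. Tdg, the glycosylase that excises oxidised methylcytosine, did not pass (30.5 ± 3.40 CPM in Ctl N and 24.9 ± 3.05 CPM in Ctl RG, 0.29, adjusted p = 0.133). With the replicate block, Tdg did pass as higher (0.29, 0.0154). Neil3 (2.04 ± 0.552 and 114 ± 7.43 CPM, -5.79 ± 0.29, 1.9e-13), Ung (-3.64), Gadd45a (-2.35) and Xrcc1 (-1.52) were lower, and Polb, the gap-filling polymerase, was higher (183 ± 9.81 and 63.9 ± 0.679 CPM, 1.52 ± 0.11, 4.33e-11). The other higher one, Parp1 (0.26, 0.0429), no longer passed without Ctl RG replicate 1 (0.20, 0.192), Ctl RG replicate 2 (0.0682) or any one Ctl N replicate (0.0785 to 0.124). The same held without Epi RG replicate 1, Ctl IP replicate 3, any one Epi IP replicate or any one Epi N replicate (0.0502 to 0.0687), which leaves 1 higher. Of 11 genes of the methyl donor cycle, 0 were higher and 5 lower in Ctl N than in Ctl RG (median -0.35), and 0 higher and 6 lower in Ctl IP (-0.43), or 0 and 7 with the replicate block. Shmt1 (-2.48 ± 0.19, 2.47e-10), Mthfd1 (-1.27 ± 0.11, 3.48e-09), Mtr (-0.89), Mtrr (-0.49) and Ahcy (-0.45) were the 5. Without Ctl RG replicate 3, Mtrr (0.0962) and Ahcy (0.0777) no longer passed, and the same held for Mtrr without Ctl N replicate 3 (0.0921) and Ahcy without Ctl N replicate 2 (0.0606). Mat2a, which makes S-adenosylmethionine, did not pass (223 ± 19.3 and 176 ± 24.5 CPM, 0.34, adjusted p = 0.0567) except with upper-quartile scaling (0.0301), with limma voom (0.0393) and without Ctl RG replicate 3, Epi RG replicate 3, Ctl IP replicate 2 or 3, or Ctl N replicate 1. Without Ctl RG replicate 3 the count of the list was 2 higher and 3 lower. Mat2b (0.20), Ahcyl1 (0.08), Shmt2 (-0.08) and Ahcyl2 (-0.35) were among the others that did not pass. The alternatives in which Ahcyl2 did pass as lower included upper-quartile scaling (0.0259), only the compared groups (0.0496) and the replicate block (0.00223). Leaving out Ctl RG replicate 1 (0.0424) was another. Of 12 germline genes that methylation is known to silence in somatic cells, 10 were measured well enough to test, and 1 was higher and 0 lower in Ctl N than in Ctl RG (median -0.01): Taf7l, at 1.46 ± 0.166 and 0.832 ± 0.199 CPM (0.84, adjusted p = 0.0384). That count was 0 with RLE or upper-quartile scaling, DESeq2, only the compared groups or no filter, and without Ctl RG replicate 1 (0.121), Ctl RG replicate 3 (0.127), Ctl N replicate 1 (0.0825) or Ctl N replicate 3 (0.111). Tex101, Dazl, Ddx4, Sycp3, Asz1, Stk31, Hormad1, Sycp1 and Tdrd1 lay between -0.78 and 1.14 and did not pass. In Ctl IP, Dazl (1.95 ± 0.924 CPM, against 0.705 ± 0.408 CPM in Ctl RG) and Tdrd1 (2.19 ± 0.353 against 0.798 ± 0.29 CPM) were higher and 0 lower, or 2 lower with the replicate block, and Dazl did not pass without Ctl IP replicate 3 (1.14, 0.0654). Without Ctl RG replicate 3 the list gave 1 lower and without Ctl IP replicate 1 it gave 2 lower. The 12 together summed to 8.32 to 12.7 CPM in Ctl N and 8.21 to 11.6 CPM in Ctl RG. In Ctl N against Ctl IP, where 2.6% of all genes were called higher and 7.74% lower, the lists gave 0 higher and 2 lower cofactors, 2 and 0 readers, 0 and 4 base excision genes, 2 and 0 NuRD subunits, 2 and 0 methyl donor genes and 0 and 1 germline genes. Several of these calls rested on single libraries. Among readers, Zbtb38 was lost without Ctl IP replicate 2 (0.0559) or Ctl N replicate 3 (0.101). Among NuRD subunits, Hdac1 was lost without Ctl IP replicate 2 (0.0731) or 3 (0.149) or Ctl N replicate 1 (0.116) or 3 (0.128). Shmt2 of the methyl donor cycle was lost without Ctl N replicate 2 (0.0925) or 3 (0.261), Ctl IP replicate 1 (0.121) or 2 (0.244), any one Ctl RG replicate, Epi RG replicate 1 or 2, Epi IP replicate 1 or 2, or Epi N replicate 2 or 3 (0.0504 to 0.0721). The germline call, Tdrd1, was lost without Ctl N replicate 3 (-1.22, 0.0638). With the replicate block, cofactors gave 1 and 4, NuRD subunits 5 and 0 and methyl donor genes 3 and 1 in that comparison. No gene of these lists was called in any comparison of Epi with Ctl.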

How the data were processed

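The files give raw read counts per gene and library, deposited by the authors, made from SmartSeq2 libraries of total RNA extracted with a kit for fixed tissue, per the labels' protocols. Reads were handled with bcl2fastq 2.20.0, cutadapt 2.6 and featureCounts 2.0.1 on GRCm39, per the submitters' processing notes. The aligner was not given in the sources used here. SmartSeq2 is not stranded and has no molecular identifiers, so antisense reads and PCR copies are counted. Antisense and nested genes inside the members held at most 6.16% of the member's count. The 92 spike-in rows (53 reads in all, 1.18e-05% of counts) were left out, and the header words for strand and gene type, which were exchanged, were set right from the values.

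In R 4.3.3, edgeR 4.0.16 fitted the 6 group means to all 18 libraries (TMM factors, filterByExpr, quasi-likelihood test). P-values were adjusted by Benjamini-Hochberg over all 29355 tested genes for each of 13 contrasts, and calls made under 0.05. Alternatives were no low-count filter, scaling by RLE or by the upper quartile, edgeR's robust fit, DESeq2 1.42.0, limma voom (limma 3.58.1), only the compared groups, the replicate number as a block and leaving out each of the 18 libraries, which makes 26 per contrast. Levels per kilobase used the union of exons in GENCODE. Ratios within a library were tested by exact permutation within arms over 27 comparisons, a test chosen after seeing the data. The fit was tested on simulated data.

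The members and lists were chosen with earlier results of these data known. Named genes are the 8 members; from each list up to 4 called genes with the smallest p, and all genes of lists of up to 13 where a count is given; and the 5 genes most like each member, by Pearson correlation of log2 CPM (prior count 2). Further list genes named were chosen after their values were seen. Some list genes that enter the counts are not reported here by name. That a replicate number marks a shared day or litter is not stated. After removal of group means, over 11210 genes with mean log2 CPM above 3, same-number libraries correlated above 0.1 in every pair of each comparison (0.105 to 0.677) except Ctl N against Ctl RG (lowest 0.0946). In each comparison the lowest same-number value lay above the highest between different numbers, which was 0.0766 in Ctl N against Ctl RG. Block values are therefore given where they change a member's call or a list's count. For Ctl N against Ctl RG most of them stand in the closing section. The replicates are labelled biological, and the source of each is not given in more detail.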

Additional observations from a re-analysis of the deposited data

How the results depend on the processing

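Calls held under all 26 alternatives for Uhrf1 in each population comparison, for Dnmt1, Dnmt3a and Tet3 against RG, for Tet2 in N against RG, for Dnmt3a in Ctl N against Ctl IP, and in Epi IP against Epi RG for Tet2 and Dnmt3b. No call of a member changed sign. Those that were lost or gained are given with their values in the report. The number of members called in Epi N against Epi IP lay between 1 and 3 when each library was left out, 1 of them without Epi N replicate 2, and 3 in the fit with all. For the other 12 contrasts, under the alternatives that could be run, the number stayed within 1.5 times that of the fit with all libraries. With the replicate block, 7 members were called in Ctl IP against Ctl RG in place of 6. In Ctl N against Ctl RG the lowest same-number correlation was 0.0946 and the highest between different numbers 0.0766. There the block gave 7 members in place of 6, with Dnmt3b added (-0.35, adjusted p = 0.0482). It also gave 4 higher in place of 2 of the base excision and Gadd45 list, and 2 in place of 0 of the methyl donor cycle. Zbtb33 (0.000147) and Mbd1 (0.042) were added to the readers. There the methyl donor count was 1 higher with upper-quartile scaling or limma voom, the base excision count 1 higher with RLE scaling, DESeq2, no filter or only the compared groups, and the NuRD count 1 lower in place of 2 without the filter. The methyl donor count was also 6 lower in place of 5 with upper-quartile scaling or only the compared groups. In Ctl N against Ctl IP the counts higher were 1 in place of 0 cofactors and 5 in place of 2 NuRD subunits with upper-quartile scaling, 1 in place of 2 for readers and NuRD subunits without the filter, and 1 in place of 2 methyl donor genes with RLE scaling or DESeq2. With only the compared groups they were 1 for readers, 0 for NuRD subunits and 1 for the methyl donor cycle, with 1 cofactor lower in place of 2. The replicate block changed no call of a member beyond those given here and in the report, but moved the count over all genes in N against IP to 4917 in Epi, in place of 3216, and to 4652 in Ctl, in place of 3035. Epi against Ctl gave 0 member calls under all 26 alternatives, with the lowest adjusted p at 0.966 and log2 fold changes between -0.31 and 0.35. The mean over populations had no alternative with only the compared groups, since it uses all. Uhrf1 in Epi over Ctl was -0.17 in RG without Epi RG replicate 3 and 0.35 in IP without Ctl IP replicate 1, Dnmt3a in N was -0.13 without Ctl N replicate 3, and Mbd3 in IP was 0.27 without Ctl IP replicate 1 and -0.11 without Ctl IP replicate 2. The ratio of Dnmt3b to Dnmt1 in N against RG (0.37) lost its call without Epi RG replicate 3 (p = 0.05) or Epi N replicate 1 (p = 0.055), and that of Tet3 to Tet2 gained one without Ctl RG replicate 3 (p = 0.015), each by the exact permutation test. With populations exchanged only within a replicate number and arm, an alternative added after seeing the data, the ratios to Dnmt1 and to the S phase genes of Dnmt3a in N against IP no longer passed (p = 0.0625 each, exact permutation), and no other ratio call was lost. Dnmt3b was counted at 155 to 535 reads a library, and Uhrf1 at 95 to 5630, the lowest in N. What protein or methylation the transcript levels give was not measured.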
